A study of Mus musculus with 8 samples.

Results

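The pallial glutamatergic lineage transcription factors Neurog1, Neurog2, Eomes, Tbr1, Neurod1, Neurod2, Neurod6, Emx1 and Emx2 mark the progenitors and neurons of the cortex, which lies next to the lateral ganglionic eminence (LGE). They were taken by symbol from a deposited table of 16913 genes, and all 9 were listed. The table compares LGE dissected from mouse embryos at embryonic day 14.5, on mixed C57BL/6J and CD1 stock. In the 4 Meis2-CKO samples (genotype Dlx5/6-Cre;Meis2F/F) both Meis2 alleles were floxed, and in the 4 littermate Ctrl samples (Dlx5/6-Cre;Meis2F/+) 1 allele was floxed. Every sample carried the Cre driver, which is active in Dlx-expressing cells of the ventral forebrain, so the Ctrl group is not wild type, and cells outside that lineage keep their Meis2 alleles in both genotypes. Meis2 encodes a TALE-class homeodomain factor. The values given here are the authors' mean signal per genotype, their log2 fold change of Meis2-CKO over Ctrl and their p-values. No value per embryo was used, so the means carry no SD, and the unit of the signal and the sequencing depth are not given in the sources used here.

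In the developing cortex, glutamatergic neurons arise from radial glia that express the homeobox genes Emx1 and Emx2. The proneural basic helix-loop-helix (bHLH) factors Neurog1 and Neurog2 commit these cells to neurogenesis and hold back the ventral, GABAergic programme. Eomes (Tbr2), a T-box factor, marks the intermediate progenitors that follow, the Neurod bHLH factors act as neurons differentiate, and Tbr1, also a T-box factor, marks early-born cortical neurons. The LGE itself is built by Dlx- and Gsx2-expressing progenitors, and its neurons are GABAergic.

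None of the 9 factors passed the deposited adjusted p of 0.05 in either direction, against 0.780% of all genes, and each had the same adjusted p of 0.999987 in the authors' deposited table. Of all 16913 genes, 40 (0.237%) were called higher and 92 (0.544%) lower in Meis2-CKO. At an unadjusted p under 0.05, which 2.17% of all genes passed, 1 of the 9 factors, Neurog2, was on the higher side, against 0.828% of all genes, and none was on the lower side, against 1.34%. The log2 fold change was above 0 for 8 of the 9 factors, against 53.3% of all genes. The median log2 fold change of the 9 was 0.15, the value of Neurod6, beside 0.012 over the whole table. The 4 factors of proneural cells, intermediate progenitors and the first step of differentiation (Neurog1, Neurog2, Eomes and Neurod1) had log2 fold changes between 0.36 and 0.52 in the authors' deposited table. The 3 factors of neurons (Neurod2, Neurod6 and Tbr1) lay between 0.10 and 0.15, and the homeobox pair Emx1 and Emx2 at 0.077 and -0.024. This grouping by role was made with the values known, and differences between the groups of factors were not tested.

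**Figure D1:**
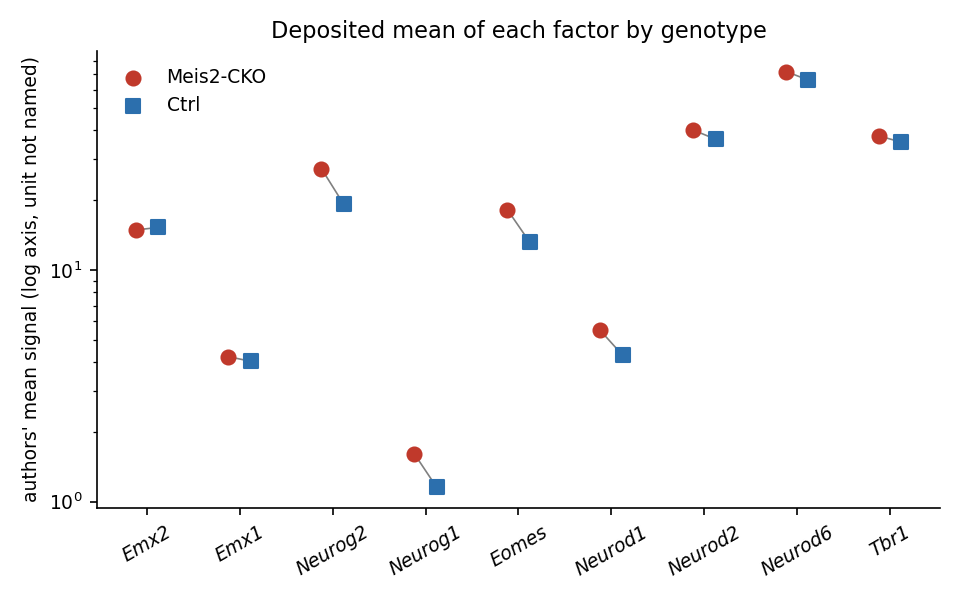
The authors' mean signal (vertical log axis, unit not named) of each of the 9 factors in Meis2-CKO (circles) and Ctrl (squares), ordered along the horizontal axis by role from progenitor to neuron; the means have no error bars because no value per embryo was used. The widest gaps are those of Neurog2 (27.4 in Meis2-CKO and 19.2 in Ctrl), Eomes (18.2 and 13.2) and Neurog1 (1.61 and 1.15).

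Neurog2 (ENSMUSG00000027967, chromosome 3, 127633135 to 127635631, plus strand, GRCm38), the principal proneural gene of the cortex, had an authors' mean of 27.4 in Meis2-CKO and 19.2 in Ctrl. In the authors' deposited table the log2 fold change was 0.52 (1.44-fold, unadjusted p = 0.0155), and this was the smallest p among the 9. A p at or below that value was held by 1.40% of all genes. A log2 fold change at least that of Neurog2 was held by 4.07% of all genes. Among the 7989 genes with a mean of at least 10 in either genotype, 45 reached it. Of the 7681 protein-coding genes among these, 14 reached it, Neurog2 included. Its paralogue Neurog1 (ENSMUSG00000048904, chromosome 13, 56250478 to 56252163, minus strand) was the lowest of the 9, with authors' means of 1.61 in Meis2-CKO and 1.15 in Ctrl. The log2 fold change of Neurog1 in the authors' deposited table, 0.45, was close to that of Neurog2, but its unadjusted p was 0.573. With a pseudocount of 1 on the ratio of the means, the log2 value was 0.28 for Neurog1 and 0.49 for Neurog2. Neurog1 is a gene of 1 exon in the annotation, with 1686 nt.

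Eomes (ENSMUSG00000032446, chromosome 9, 118478212 to 118486132, plus strand) had an authors' mean of 18.2 in Meis2-CKO and 13.2 in Ctrl. In the authors' deposited table its log2 fold change was 0.47 (1.39-fold, unadjusted p = 0.0654). That fold change was reached by 4.58% of all genes and by 51 of the 7989 genes with a mean of at least 10. Of the 7681 protein-coding genes with such a mean, 19 reached it, Eomes included. Neurod1 (ENSMUSG00000034701, chromosome 2, 79452521 to 79456751, minus strand), a bHLH factor switched on at the passage from intermediate progenitor to neuron, stood at 5.48 in Meis2-CKO and 4.29 in Ctrl. The authors' deposited table gives Neurod1 a log2 fold change of 0.36 (unadjusted p = 0.428). Neurog1, Neurog2, Eomes and Neurod1 each had the higher mean in Meis2-CKO, with Neurog2 alone past an unadjusted p of 0.05. The annotated span of Neurod1 overlaps Cerkl on the same strand and Gm26755 on the other, and that of Eomes overlaps the antisense gene Gm33460. These 3 genes were not listed in the authors' deposited table, so no values can be given for them. Whether the counting used strand is not said in the notes, so their reads could not be told apart from those of Neurod1 and Eomes.

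**Figure D2:**
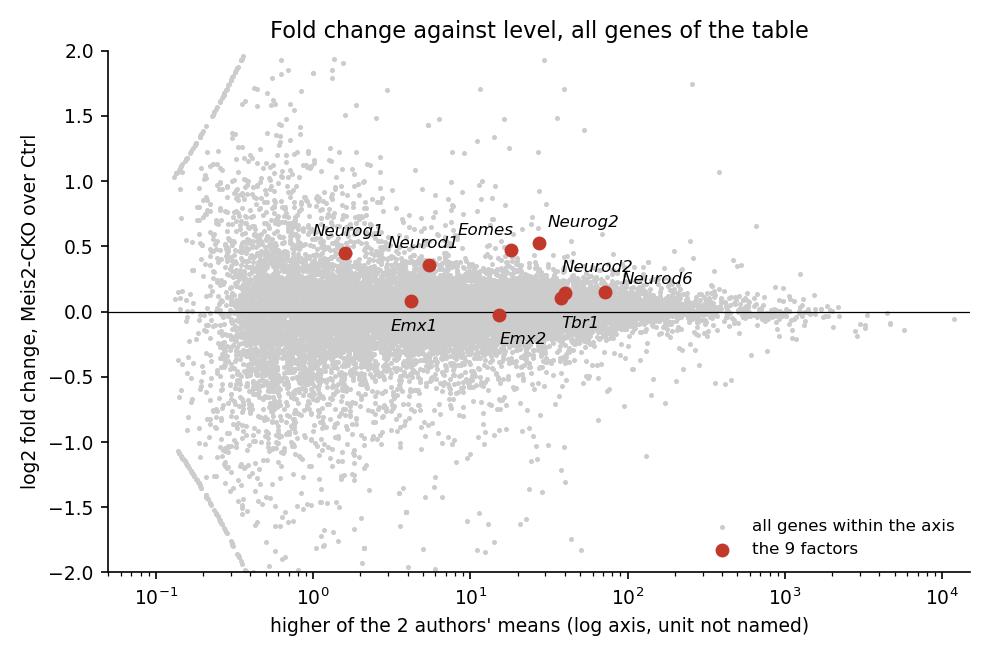
Fold change of Meis2-CKO over Ctrl on the log2 scale (vertical axis, from -2 to 2) against the higher of the 2 authors' means (horizontal log axis, unit not named) for the genes of the table that fall within the axis (grey) and the 9 factors (red). Neurog2 and Eomes, at 0.52 and 0.47, lie near the upper edge of the genes of like level, Neurog1 has nearly the same fold change where the grey points spread more widely, and the other factors lie nearer to 0.

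The factors of postmitotic cortical neurons had the highest deposited means of the 9, and these differed little between the genotypes. Neurod6 (ENSMUSG00000037984, chromosome 6, 55677822 to 55681263, minus strand), a bHLH factor of differentiating pyramidal neurons, had authors' means of 71.9 in Meis2-CKO and 66.0 in Ctrl. The authors' deposited table gives Neurod6 a log2 fold change of 0.15 (unadjusted p = 0.573). Neurod2 (ENSMUSG00000038255, chromosome 11, 98325415 to 98329648, minus strand), which acts in the same neurons, stood at 40.2 in Meis2-CKO and 36.7 in Ctrl, with a log2 fold change of 0.14 (unadjusted p = 0.383) in the authors' deposited table. For Tbr1 (ENSMUSG00000035033, chromosome 2, 61802930 to 61814114, plus strand), needed for deep-layer identity in the cortex, the authors' means were 37.9 in Meis2-CKO and 35.6 in Ctrl. Tbr1 has a log2 fold change of 0.10 in the authors' deposited table, with an unadjusted p of 0.551. At least 9.96% of the protein-coding genes with a mean of 10 or more had a log2 fold change as high as any of these 3.

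The Emx genes, which pattern the pallium and are expressed in its radial glia, lay nearest to no difference. Emx2 (ENSMUSG00000043969, chromosome 19, 59458372 to 59465357, plus strand) had authors' means of 14.9 in Meis2-CKO and 15.3 in Ctrl, with a log2 fold change of -0.024 (unadjusted p = 0.926) in the authors' deposited table. Emx1 (ENSMUSG00000033726, chromosome 6, 85187438 to 85204462, plus strand) stood at 4.22 in Meis2-CKO and 4.03 in Ctrl, with a log2 fold change of 0.077 (unadjusted p = 0.874) in the authors' deposited table. The antisense gene Emx2os, which overlaps the start of Emx2, had authors' means of 0.693 in Meis2-CKO and 0.573 in Ctrl. With no spread between embryos at hand, these values do not show that Emx1 and Emx2 were unchanged.

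In Meis2-CKO the order of the authors' means, high to low, was Neurod6, Neurod2, Tbr1, Neurog2, Eomes, Emx2, Neurod1, Emx1 and Neurog1. In Ctrl, Emx2 stood above Eomes and the order was otherwise the same. This order compares genes only if the signal is scaled to gene length. With protein-coding genes cut into 5 groups of equal size by exon length, the median Ctrl mean was 9.18 in the shortest group and 14.2 in the longest. Which neighbours in the order differ beyond their spread could not be judged. Nearly every gene of the table had a mean above 0: of all 16913, 159 were at 0 in Meis2-CKO and 145 in Ctrl. All 9 factors were likewise above 0 in both genotypes, so some transcripts of each were recorded in both sets of dissected LGE. In bulk tissue a larger number of such cells and more RNA per cell cannot be told apart.

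The promoters of Neurog2 and Eomes, with the smallest p-values among the factors, and of Neurod2, with a match to the TALE-class core, are shown because Meis2 is itself a TALE-class factor. Each line gives the 250 bases before the RefSeq transcript start (build GRCm38.p6), 5′ to 3′ on the gene's strand, with capitals on motif matches.
Neurog2, chr3:127632886-127633135, plus strand: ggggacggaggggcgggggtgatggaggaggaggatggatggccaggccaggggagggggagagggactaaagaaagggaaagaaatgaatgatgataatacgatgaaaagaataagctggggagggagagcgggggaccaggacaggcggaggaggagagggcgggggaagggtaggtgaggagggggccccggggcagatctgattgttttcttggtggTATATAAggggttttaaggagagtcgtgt
Eomes, chr9:118477939-118478188, plus strand: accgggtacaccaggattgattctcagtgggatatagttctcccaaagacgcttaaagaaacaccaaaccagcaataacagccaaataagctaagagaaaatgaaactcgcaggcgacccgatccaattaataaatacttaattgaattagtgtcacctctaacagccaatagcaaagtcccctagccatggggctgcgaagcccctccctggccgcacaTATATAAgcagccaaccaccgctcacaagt
Neurod2, chr11:98329646-98329895, minus strand: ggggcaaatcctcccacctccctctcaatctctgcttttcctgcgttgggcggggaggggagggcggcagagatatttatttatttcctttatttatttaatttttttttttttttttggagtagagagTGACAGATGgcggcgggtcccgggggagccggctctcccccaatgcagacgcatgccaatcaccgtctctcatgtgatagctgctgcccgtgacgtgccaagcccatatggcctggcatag

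Motifs were searched on both strands in windows of 250 bases before to 50 after the start, 1 window for each of the 9 factors and 32851 windows over all RefSeq genes. The TALE-class core TGACAG was present in 2 of the 9 windows, those of Neurod2 and Tbr1, against 19.2% of all windows. In Neurod2 it begins 121 bases before the start and shares its last 3 bases with CAGATG, an E-box of the Neurog and Neurod type. That E-box was found in no other of the 9 windows, against 17.2% of all windows. The windows of Neurog2, Eomes, Neurod1, Neurog1, Neurod6, Emx1 and Emx2 held no TGACAG. The homeodomain core TAATTA was present in 3 of 9 windows (Tbr1, Neurog1 and Emx2), against 5.29% of all, and the T-box motif GGTGTGA in 0 of 9, against 3.98%. The form TATATAA of the TATA box, searched only after the sequences had been read, was present in the windows of Neurog2, Eomes and Neurod1, beginning 29, 30 and 31 bases before the start, and in none of the other 6 windows. TATATAA was found anywhere in 3.24% of all windows, and with its start between 35 and 25 bases before the transcript start in 0.536%. The median GC content was 58.0% over the 9 windows and 52.7% over all windows. It was 74.0% for Emx1 and 69.3% for Neurog1, and 46.0% for Tbr1. The GENCODE and RefSeq starts differ for some of these genes: the 250 bases of the Emx1, Emx2 and Tbr1 windows lie wholly within GENCODE exons, and 115 bases of the Neurod1 window do. A match is a stretch of letters and no evidence of binding.

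**Figure D3:**
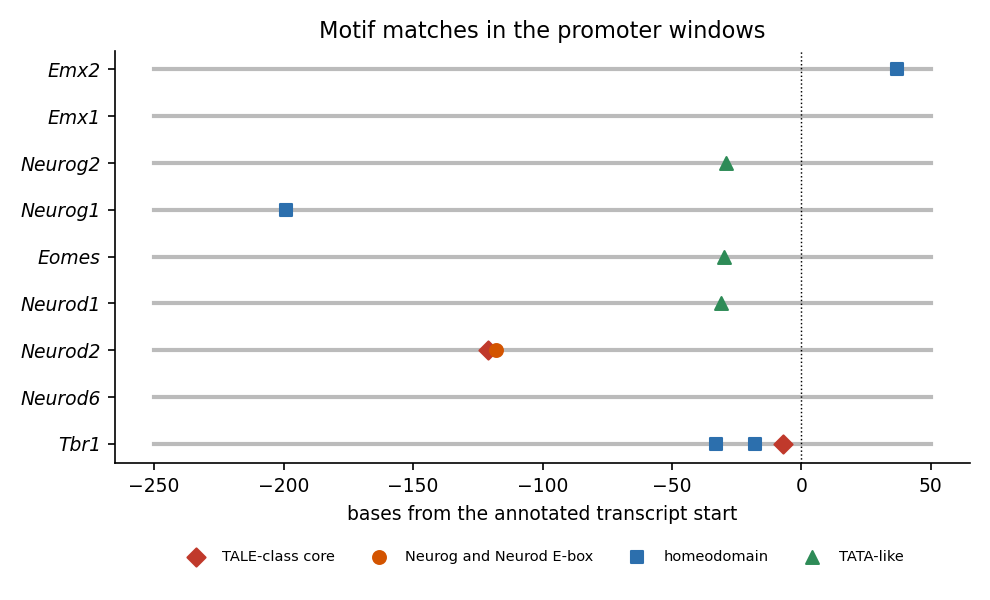
Motif matches in the promoter windows of the 9 factors (rows) by distance of the motif's first base from the RefSeq transcript start (horizontal axis, bases); symbols mark the motif type, on either strand. The TATA-like matches of Neurog2, Eomes and Neurod1 line up at 29 to 31 bases before the start, the TALE-class core is seen in Neurod2 and Tbr1, and Emx1 and Neurod6 have no match.

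Genes that act in pallial progenitors around the factors mostly had higher means in Meis2-CKO, again with no call. Bulk LGE values do not show which cells held their transcripts. Of 16 pallial progenitor and patterning genes 12 were listed. Of these 12, 11 had a log2 fold change above 0, against 53.3% of all genes, and none was called, against 0.780%. The median of the 12 was 0.21 in the authors' deposited table. Pax6, which drives Neurog2 in cortical radial glia, had authors' means of 55.0 in Meis2-CKO and 46.9 in Ctrl (log2 fold change 0.24, unadjusted p = 0.0903 in the authors' deposited table). Gli3, a transcription factor of the Hedgehog pathway, stood at 20.9 in Meis2-CKO and 17.1 in Ctrl, the nuclear receptor gene Nr2e1 at 52.4 and 45.1, and the LIM homeobox gene Lhx2 at 45.6 and 39.8. None of the 12 reached an unadjusted p under 0.05, which 2.17% of all genes passed. Neurog2 and Eomes each had a larger log2 fold change than 11 of these 12 genes, but the median of all 9 factors, 0.15, was below that of the 12. The 8 radial glia markers common to cortex and LGE, given below, also had a median of 0.21, so the higher values were not particular to the pallial list.

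Among 18 genes of the neurogenic cascade and of intermediate progenitors, all listed, 15 were above 0, against 53.3% of all genes. Their median log2 fold change was 0.19, and none was called, against 0.780% of all genes. Mfng, a Fringe glycosyltransferase of the Notch pathway, had authors' means of 73.9 in Meis2-CKO and 61.9 in Ctrl (log2 fold change 0.27, unadjusted p = 0.0364 in the authors' deposited table). Insm1, a zinc-finger factor of basal progenitors, stood at 79.1 in Meis2-CKO and 64.3 in Ctrl (log2 fold change 0.32), and the Notch ligand gene Dll3 at 23.0 and 19.4 (0.26), in the authors' deposited table. Tmem158 went the other way, with authors' means of 4.30 in Meis2-CKO and 9.59 in Ctrl (log2 fold change -1.12, unadjusted p = 0.00453, adjusted p = 0.407 in the authors' deposited table). All 18 had a log2 fold change below those of Neurog2 and Eomes, but the median of all 9 factors, 0.15, was below that of these 18 genes. Several of these genes, Insm1 and Dll3 among them, are also expressed in ventral progenitors.

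Cortical projection neuron and Cajal-Retzius genes were split. All 20 were listed, with 9 above 0, against 53.3% of all genes, and 11 below. Their median log2 fold change was -0.017 in the authors' deposited table, and none was called, against 0.780% of all genes. Tle4, a Groucho corepressor gene of deep-layer neurons, had authors' means of 9.59 in Meis2-CKO and 15.6 in Ctrl (log2 fold change -0.68, unadjusted p = 0.0188 in the authors' deposited table). Ldb2 stood at 6.53 in Meis2-CKO and 9.89 in Ctrl, and Reln, the secreted glycoprotein of Cajal-Retzius cells, at 19.4 and 25.2. Cux1, a homeobox gene of upper-layer neurons and progenitors, stood at 63.2 in Meis2-CKO and 55.5 in Ctrl. The vesicular glutamate transporter genes, which define the transmitter of these neurons, stood close together: Slc17a7 had authors' means of 3.80 in Meis2-CKO and 3.90 in Ctrl, and Slc17a6 of 9.68 and 8.64. The transporters were named after their values were seen. For all 20 genes, bulk LGE values do not show which cells held the transcripts.

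The E-proteins, with which Neurog and Neurod factors pair to bind DNA, had slightly higher means in Meis2-CKO. Tcf4 stood at 111 in Meis2-CKO and 95.5 in Ctrl (log2 fold change 0.23, unadjusted p = 0.0373 in the authors' deposited table), Tcf3 at 99.97 and 91.5, and Tcf12 at 76.0 and 69.3. The Notch effector Hes5, which represses proneural genes, stood at 63.1 in Meis2-CKO and 57.9 in Ctrl. Over the 11 partners and inhibitors the median log2 fold change was 0.11. Of the 11, 8 were above 0, against 53.3% of all genes, and none was called, against 0.780%. Of 17 other genes, from the Neurog, Neurod, Atoh, Olig and T-box families with Emx2os, 9 were listed. None of these 9 was called either, and their median was 0.13. Olig2 had authors' means of 21.2 in Meis2-CKO and 19.6 in Ctrl, Olig1 of 4.22 and 4.17, and Neurod4 of 1.19 and 0.94.

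**Figure D4:**
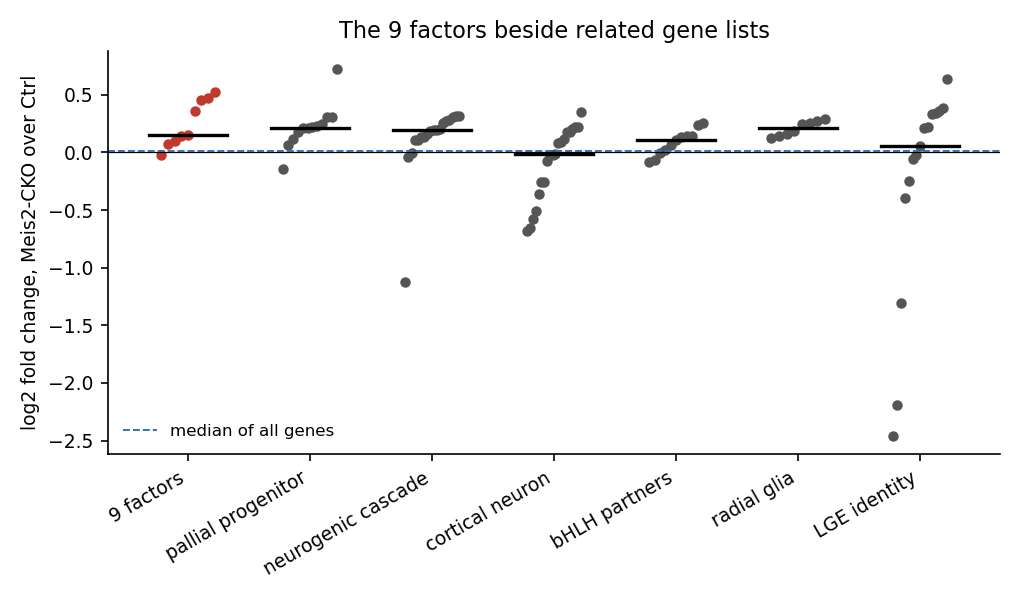
Fold change of Meis2-CKO over Ctrl on the log2 scale (vertical axis) for each listed gene of the 9 factors (red) and of 6 related lists (grey), sorted within each list from low to high; black bars are list medians and the dashed line is the median of all genes, 0.012. The 9 factors reach 0.52, the radial glia genes all lie between 0.13 and 0.29, and the LGE identity genes spread from -2.46 to 0.64.

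Markers of progenitors common to cortex and LGE also had higher means in Meis2-CKO, and their part in the difference was not tested. All 8 radial glia genes were above 0, against 53.3% of all genes, with a median log2 fold change of 0.21. Their summed authors' means were 1951 in Meis2-CKO and 1732 in Ctrl. Nes, a progenitor intermediate filament, stood at 126 in Meis2-CKO and 104 in Ctrl (log2 fold change 0.29, unadjusted p = 0.0123 in the authors' deposited table), Sox2 at 142 and 121, Slc1a3 at 57.2 and 47.8, and Fabp7 at 968 and 860. None was called, against 0.780% of all genes, and none reached the log2 fold change of Neurog2 or Eomes, the highest of the 9 factors. Over all 9 factors the median was 0.15, below the 0.21 of the radial glia genes. All 15 LGE progenitor and GABAergic neuron markers were listed. Of these 15, 3 neuronal factors fell in Meis2-CKO, against 0.544% of all genes called lower, and none was called higher, against 0.237%. In the authors' deposited table Isl1 was 4.56-fold lower (12.5 in Meis2-CKO, 57.9 in Ctrl, adjusted p = 7.8e-26), Ebf1 5.49-fold lower (3.75 and 21.3, adjusted p = 1.34e-10) and Foxp1 2.47-fold lower (16.1 and 40.2, adjusted p = 5.53e-08). By sign alone 8 had a log2 fold change above 0, against 53.3% of all genes, and 7 below. At an unadjusted p under 0.05 there were 5 on each side, against 0.828% of all genes higher and 1.34% lower. Dlx1, named with the next 5 genes after their values were seen, had authors' means of 496 in Meis2-CKO and 393 in Ctrl (log2 fold change 0.35, unadjusted p = 0.00391 in the authors' deposited table). Dlx5 stood at 92.1 in Meis2-CKO and 72.3 in Ctrl, Dlx2 at 171 and 137, and Sp9 at 44.5 and 34.3. On the lower side, Dlx6 stood at 29.9 in Meis2-CKO and 39.8 in Ctrl, and Gad2 at 75.4 and 90.3. Sp8, a zinc-finger gene of dorsal LGE progenitors, stood at 26.8 in Meis2-CKO and 17.3 in Ctrl (log2 fold change 0.64, unadjusted p = 0.00345, adjusted p = 0.337 in the authors' deposited table), a larger difference than that of any of the 9 cortical factors.

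Markers of cells that may adjoin the dissected tissue gave no call, against 0.780% of all genes called. Of 7 meningeal fibroblast genes 6 were listed, 1 with a log2 fold change above 0, against 53.3% of all genes, and 5 below. Their median was -0.76, at low means that summed to 2.73 in Meis2-CKO and 4.70 in Ctrl. Col1a2 stood at 0.802 in Meis2-CKO and 1.82 in Ctrl. Of 8 choroid plexus and cortical hem genes 3 were listed, with sums of 8.75 in Meis2-CKO and 8.59 in Ctrl, most of it Otx2 (7.50 and 7.78). The 10 red cell, endothelial and microglia genes summed to 2269 in Meis2-CKO and 2244 in Ctrl. Hba-a2, which has a near-identical copy and is therefore uncertain, stood at 19.4 and 15.2, Pecam1 at 7.50 and 6.53, Cx3cr1 at 5.49 and 3.76, and Aif1 at 2.89 and 3.82. The log2 fold change of the microglial gene Cx3cr1, 0.54 in the authors' deposited table, was above those of all 9 factors, and that of Hba-a2, 0.37, was above that of Neurod1. Over the 10 genes the median was 0.037. Named after their values were seen, Hba-a1 stood at 1563 in Meis2-CKO and 1561 in Ctrl, Hbb-bt at 309 and 298, and Hbb-y at 326 and 319. The microglial gene P2ry12, also so named, stood at 10.7 and 10.8. None of these 19 listed genes was at 0 in either mean. Of all 16913 genes, 159 were at 0 in Meis2-CKO and 145 in Ctrl. None of the 19 passed an unadjusted p of 0.05, which 2.17% of all genes passed. The part of these 19 genes in the cortical factors' values was not tested.

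Meis2, the targeted gene, fell to an authors' mean of 140 in Meis2-CKO, against 204 in Ctrl (log2 fold change -0.53, adjusted p = 0.00195 in the authors' deposited table). The sum of all authors' means was 543246 in Meis2-CKO and 547952 in Ctrl. The Y-linked gene Eif2s3y stood at 14.0 in Meis2-CKO and 50.5 in Ctrl, and Xist, from the inactive X chromosome, at 256 and 78.0, while no label states the embryos' sex; what this has to do with the factors was not tested. The deposited p-values ran high, with a median of 0.760 and 2.17% of them under 0.05. Whatever that median, a gene that did not pass is not shown to be equal in both genotypes.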

How the data were processed

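RNA-seq of dissected LGE was compared between 4 Meis2-CKO and 4 Ctrl samples. FastQC 0.11.5, HISAT2 2.1.0, StringTie 1.3.1 and the builds GRCm38.p2 and mm10 are named, without roles, per the submitters' processing notes; which tool gave the p-values was not stated in them. The table holds the authors' mean signal per genotype, in an unnamed unit; every mean is a multiple of 0.0025. The log2 fold change, the p-value and the adjusted p are the authors' deposited values, and adjusting the deposited p-values over all 16913 genes by the Benjamini-Hochberg method returned the deposited adjusted p. Another 8 columns of library values have names that match no sample label and were not used. A fit on libraries, with a replicate block or leaving out a sample, was therefore not run. Protein identity between the factors was planned and not analysed here.

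The factors, lists and tests were chosen with earlier results of these data known. Named were the 9 factors, Meis2, genes overlapping a factor, and from each list the called members and then those with the smallest p, up to 4, at a mean of at least 1; exceptions are said in place, the result for 1 gene named by the rule is not reported here, and the sex-linked genes were named after their values were seen. Gene places came from GENCODE M21 (GRCm38; 16861 genes matched by ID) and promoters from RefSeq (GRCm38.p6). The adjustment and motif search were tested on simulated data. The software was matplotlib 3.10.9, pandas 2.3.3, numpy 2.4.6 and scipy 1.17.1 under Python 3.11.15. The alternatives are given in the closing section.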

Additional observations from a re-analysis of the deposited data

How the results depend on the processing

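The 9 factors stayed uncalled, with the direction of their log2 fold change as reported, under a mean of at least 2 or at least 10, the Benjamini-Yekutieli adjustment, a pseudocount of 1 on the log2 ratio of the means, centring on the median of all genes, and restriction to genes of 300 nt of exon or more. The Benjamini-Yekutieli adjustment can only raise an adjusted p, and the pseudocount and the centring kept the deposited adjusted p. Under those settings no factor could become called. Only the pseudocount and the centring altered the log2 fold changes. A mean of at least 2 left out Neurog1, and one of at least 10 left out Neurog1, Neurod1 and Emx1, so that 5 factors were above 0 where 8 had been. Under a mean of at least 2 the median log2 fold change turned from -0.017 to 0.033 for the cortical neuron genes and from 0.19 to -0.040 for the choroid plexus and hem genes, since fewer genes entered; no meningeal gene reached that mean. Searched on the gene's own strand alone, TGACAG was present in 1 of the 9 promoter windows in place of 2. A pseudocount of 1 took the log2 value of Neurog1 to 0.28, from 0.45, and the median of the meningeal genes to -0.22, from -0.76. No paired analysis was possible because columns were assigned to samples by name only and the 8 columns of library values have names that match no sample label. For the same reason no sample was left out. The depth is unknown, so no detection limit can be given for the low factors Neurog1, Emx1 and Neurod1.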
